A study of Homo sapiens with 4 samples.

Results

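Actin filaments are built from actin monomers, and their contraction, bundling and anchorage depend on myosin, tropomyosin, cross-linking proteins and the adhesion sites that tie filaments to the membrane. Smooth muscle cells use a specialised set of these genes, among them ACTA2, ACTG2, CNN1 and TAGLN, which fibroblasts and dedifferentiated chondrocytes can also express. Many genes of both kinds are known targets of serum response factor (SRF), which binds a DNA element called the CArG box and is switched on by the actin-sensing coactivators MRTFA and MRTFB when free actin monomer is low.

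The genes described are 40 actin cytoskeleton and contractile genes, found by symbol in a deposited table of 19215 genes, all of which were present. They were divided into 14 smooth-muscle type genes (genes best known from smooth or other muscle) and 26 general cytoskeleton genes. Levels are FPKM, fragment numbers scaled by transcript length and by library size, so that levels can be compared between genes.

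The cells were C28/I2, an established line of immortalised human chondrocytes, in medium with serum. In 2 libraries the cells had received 25 ng/mL of FABP4, the fatty acid-binding protein that adipocytes secrete, for 48 h. In the other 2 libraries they had received 0.5% DMSO for 48 h, and it is not stated if DMSO was in the FABP4 medium too. If it was not, a change due to FABP4 and one due to DMSO cannot be told apart. The comparison asks how FABP4 changes the expression profile of these cells. The labels do not state that replicates came from separate cultures, so the spread behind each p-value is that between these libraries and may be technical.

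The 4 libraries were alike in depth, at an estimated 11225000 to 12700000 fragments, so that 1 FPKM stands for about 11.2 to 12.7 fragments per kilobase. Across the 12490 genes tested, log2 levels correlated with r = 0.993 and 0.994 within the conditions and 0.991 to 0.993 between them. Of 10 chondrocyte markers, 7 were below 1 FPKM throughout, COL2A1 and the matrix gene COMP included, while SOX9 lay at 8.81 to 11.34 FPKM. COL9A1 was listed at 0 throughout. Of 6 fibroblast markers, the collagen genes COL1A1 and COL1A2 lay at 793.6 to 1123.74 and 409.35 to 539.23 FPKM. The others were far lower, PDGFRB at 9.46 to 11.51 FPKM, PDGFRA at 2.88 to 4.3, COL3A1 at 1.12 to 1.27 and THY1 at 0.1 to 0.24. Of 6 markers of mature smooth muscle, MYH11 and MYOCD were at most 0.05 and 0.01 FPKM, so the heavy chain and the coactivator that define that cell type were near 0. The 6 markers summed to 60.7 and 69.7 FPKM with FABP4 and 78.5 and 69.3 with DMSO, and the 6 fibroblast markers to 1217 and 1680 against 1548 and 1377, so both sums overlapped between groups. The smooth muscle sum is mostly SMTN, at 49.85 to 61.3 FPKM, and includes the members CNN1 and LMOD1, so it is not independent of the results. The fibroblast sum is mostly COL1A1 and COL1A2. Chondrocyte markers summed to 12.7 and 15.4 FPKM with FABP4 and 16.6 and 16.4 with DMSO, lower in both FABP4 libraries. That sum is mostly SOX9, at 8.81 and 9.98 FPKM with FABP4 and 11.34 and 11.29 with DMSO. ACAN overlapped, at 2.53 and 3.69 against 3.29 and 2.88 FPKM. The part of the lower sum in the results below was not tested. All 4 endothelial and all 3 adipocyte markers stayed under 1 FPKM, as did PTPRC and CD14 of 3 immune and EPCAM of 3 epithelial markers, while CD68, KRT8 and KRT18 did not.

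ACTG2, CNN1 and ACTA2 were lower in cells given FABP4, at 0.558, 0.582 and 0.657 times the DMSO level. They were the only members past an adjusted p of 0.05 in limma, a linear-model test fitted over all genes. In bulk RNA, fewer cells of a type and less RNA per cell cannot be told apart. The same holds for FABP4 and DMSO, if only the control cells had DMSO. The called genes are 3 of the 12 smooth-muscle type genes tested and none of the 26 general genes, where 0.592% of all genes tested passed in either direction and 0.296% passed as lower. At an unadjusted p under 0.05, 8 of the 12 and 3 of the 26 were lower and none was higher, against 4% of all genes tested as lower, 5.68% as higher and 9.68% in both directions. The median log2 fold change was -0.39 for the smooth-muscle type genes, -0.19 for the general genes and 0.01 for all genes tested. The difference between the 2 groups of members was not tested. The members and lists were chosen with earlier results of these data known, so their gap to all genes is a description only.

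The promoters of ACTG2, ACTA2 and SRF are shown because ACTG2 and ACTA2 were lower and SRF encodes the factor that reads the CArG box. They were also picked for boxes close to the start site, full ones in ACTG2 and SRF and only near matches in ACTA2. CNN1 was lower too, but its window held neither form and is not shown. Each stretch is the RefSeq promoter window of 300 bases on GRCh38.p14, on the strand of the gene, 5′ to 3′, and capitals mark CArG boxes (2 C, 6 letters of A or T, 2 G), in ACTA2 with 1 of the 6 letters replaced by G or C. The ACTA2 window belongs to a start site inside the longest annotated span of the gene. The windows lie at chr2:73892758-73893057 (plus strand, ACTG2), chr10:88952724-88953023 (minus strand, ACTA2) and chr6:43171019-43171318 (plus strand, SRF).
ACTG2: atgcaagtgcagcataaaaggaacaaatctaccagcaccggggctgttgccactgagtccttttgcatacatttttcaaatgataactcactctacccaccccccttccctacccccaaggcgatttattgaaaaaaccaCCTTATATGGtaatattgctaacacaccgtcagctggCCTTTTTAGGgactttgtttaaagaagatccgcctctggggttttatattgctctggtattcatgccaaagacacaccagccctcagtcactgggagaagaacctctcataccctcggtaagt
ACTA2: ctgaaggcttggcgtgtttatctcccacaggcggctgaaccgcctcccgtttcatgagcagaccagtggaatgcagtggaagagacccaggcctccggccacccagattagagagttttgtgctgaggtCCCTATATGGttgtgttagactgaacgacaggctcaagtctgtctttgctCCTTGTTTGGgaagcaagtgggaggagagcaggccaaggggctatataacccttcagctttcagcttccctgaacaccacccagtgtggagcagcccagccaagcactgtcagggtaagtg
SRF: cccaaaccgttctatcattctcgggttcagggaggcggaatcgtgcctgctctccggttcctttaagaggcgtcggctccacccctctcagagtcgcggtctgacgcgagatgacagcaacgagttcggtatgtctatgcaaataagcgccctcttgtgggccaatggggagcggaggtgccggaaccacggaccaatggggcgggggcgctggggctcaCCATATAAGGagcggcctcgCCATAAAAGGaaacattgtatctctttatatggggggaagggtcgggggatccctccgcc

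RefSeq promoter windows were matched by symbol for 37 of the 40 members and not for TAGLN, MYL9 and ACTB. The CArG pattern reads the same on both strands. It was found in at least 1 window of 11 of the 37 member genes, or 29.7%, against 1.60% of the 27305 genes with a window. With up to 1 of the 6 middle letters being G or C, the shares were 43.2% and 9.88%. A gene can have several windows. Counted by window, the full pattern was in 16.05% of the 81 member windows, against 1.293% of all 35116 windows. The ACTG2 box CCTTATATGG, 110 bases before the start site, recurs letter for letter in a window of FHL2, 59 bases before the start site there. ACTG1, CNN2, TPM4, FLNA, ACTN1, TGFB1I1, FHL1, ACTC1 and SRF held other full matches. No CNN1 window held the pattern, which says only that these letters are not in that stretch.

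The 10 tested members with a full CArG match had a median log2 fold change of -0.32, and all 10 lay below 0. The 25 tested members with a window and no match had a median of -0.18, with 21 below 0. Of the 3 called members, ACTG2 is among those with a full match, and ACTA2 and CNN1 are among those without. Among the 155 tested genes with a match that are not members, the median was 0.0025 and 49.0% lay below 0, close to the median of 0.0154 and the 45.6% of the 10035 tested genes without a match. Of these 155 genes, 33 (21.3%) had both FABP4 libraries below both DMSO libraries and 26 had both above. Among the 10035 genes without a match, 15.7% lay below in this way and 2093 genes lay above. Over all genes tested, 16.1% lay below and 20.7% above. These shares are descriptions, and none was tested.

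**Figure D1:**
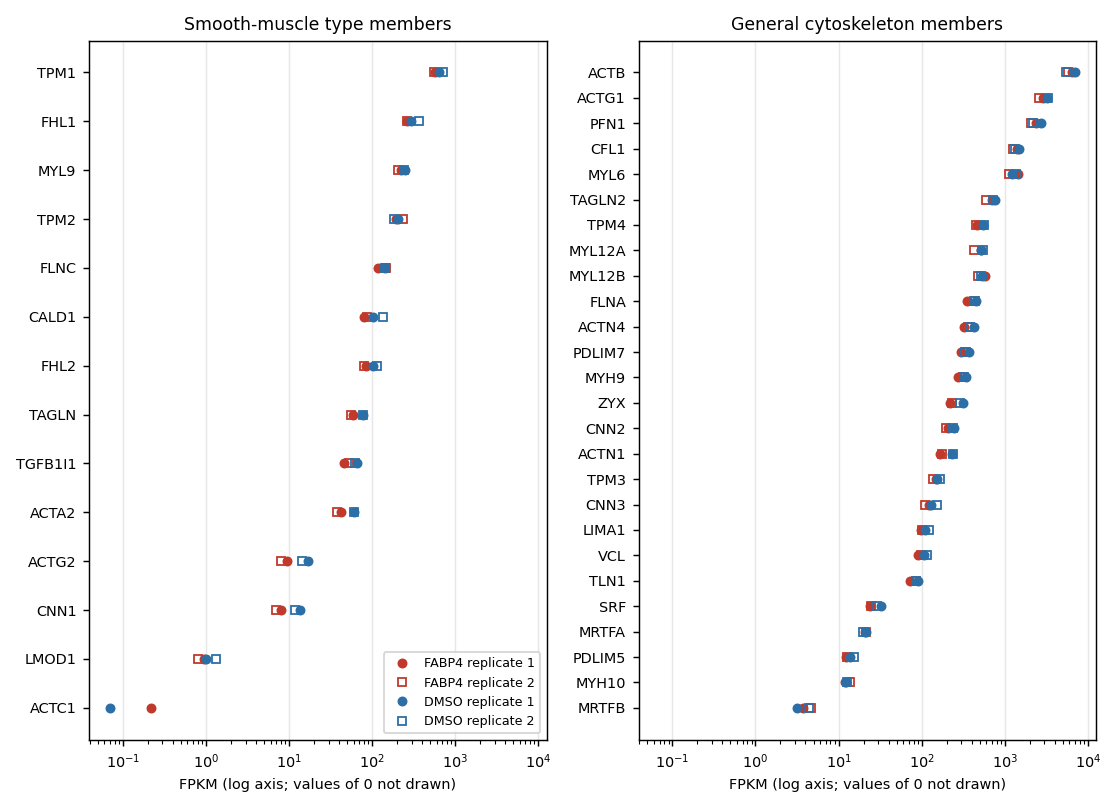
FPKM of each member (rows, ordered by mean DMSO level) on a log axis, with one point per library, for the smooth-muscle type genes on the left and the general genes on the right. ACTG2, CNN1 and ACTA2 show both FABP4 points left of both DMSO points, at 7.98 and 9.52 against 14.27 and 17.11 FPKM for ACTG2, while levels span from ACTC1, at most 0.22, to ACTB at up to 7111.11 FPKM.

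Among the members the cytoplasmic actin genes were by far the most abundant. ACTB had a mean of 6220 FPKM over the 4 libraries, ranked 5 in the table, and its range lay above that of the next member, ACTG1, at 3020 FPKM. ACTG1 (rank 15) overlapped with the profilin gene PFN1 at 2346 FPKM. The cofilin gene CFL1 and the myosin light chain gene MYL6 followed at 1373 and 1295 FPKM with overlapping ranges. From TAGLN2 at 695 FPKM down to TPM2 at 204 FPKM each member's range overlapped that of the next one. ACTA2 stood at 50.4 FPKM, ACTG2 at 12.2 and CNN1 at 10.1, so the called genes are low within this set. MRTFB at 3.96, LMOD1 at 1.01 and ACTC1 at 0.0725 FPKM were the lowest, and the last pair did not pass the filter of at least 1 FPKM in 2 libraries.

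ACTA2 (gene ID 59, chromosome 10, 88935074 to 88991339, GRCh38, minus strand) encodes the alpha actin of vascular smooth muscle and of myofibroblasts. It had 42.2 and 37.67 FPKM with FABP4 and 60.84 and 60.76 with DMSO, replicate 1 first here and in later pairs. Both FABP4 libraries lay below both DMSO libraries, which differed little from each other. The mean was 39.9 ± 3.20 against 60.8 ± 0.0566 FPKM (SD, n = 2 each), a log2 fold change of -0.60 (SE 0.12, adjusted p = 0.0296 in limma). Leaving out FABP4 replicate 2, DMSO replicate 1 or DMSO replicate 2 ended the call (adjusted p = 0.106, 0.0599 and 0.0946 in limma), and the adjusted p in limma ranged from 1.81e-04 to 0.482 over its 13 alternatives.

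ACTG2 (gene ID 72, chromosome 2, 73892314 to 73919865, GRCh38, plus strand) encodes the gamma actin of visceral smooth muscle. It had 9.52 and 7.98 FPKM with FABP4 and 17.11 and 14.27 with DMSO. The groups did not overlap, and the FABP4 mean was 8.75 ± 1.09 against 15.7 ± 2.01 FPKM (SD, n = 2 each; log2 fold change -0.77, SE 0.13, adjusted p = 0.0103 in limma). The call held with each library left out in turn. Testing without a filter or after quantile normalization ended it (adjusted p = 1.14e-05 to 0.532 in limma over its 13 alternatives).

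The 2 cytoplasmic actin genes were not called. ACTB had 6449.75 and 5774.09 FPKM with FABP4 against 7111.11 and 5543.18 with DMSO, and the DMSO libraries enclosed the FABP4 ones (log2 fold change -0.04, SE 0.24, adjusted p = 0.989 in limma). ACTG1 had 2880.59 and 2622.81 against 3209.91 and 3368.56 FPKM (log2 fold change -0.26, SE 0.20, adjusted p = 0.812 in limma). ACTC1, the cardiac actin gene, had 0.22 and 0 FPKM with FABP4 and 0.07 and 0 with DMSO, too low to test.

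The share of one gene in its family does not depend on how libraries are scaled. Differences between libraries that follow transcript length, described below, do not cancel in it where family genes differ in length. ACTA2 and ACTG2 together made up 0.551% and 0.541% of the summed FPKM of the 6 actin genes (ACTA1 included) with FABP4. With DMSO they made up 0.750% and 0.835%. The share was thus lower in both FABP4 libraries, with a mean difference of -0.246 percentage points (exact permutation test over the libraries, two-sided p = 0.333, the smallest that 2 against 2 allows).

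CNN1 (gene ID 1264, chromosome 19, 11538717 to 11550323, GRCh38, plus strand) encodes basic calponin, an actin-binding protein that damps myosin activity in smooth muscle. It had 7.95 and 6.93 FPKM with FABP4 and 13.61 and 11.94 with DMSO. The groups lay well apart, at 7.44 ± 0.721 against 12.8 ± 1.18 FPKM (SD, n = 2 each; log2 fold change -0.71, SE 0.12, adjusted p = 0.0140 in limma). The call was lost without FABP4 replicate 2 (adjusted p = 0.0550 in limma), and 13 alternatives gave values from 1.81e-04 to 0.525. For both CNN1 and ACTA2 it also ended without a filter and after quantile normalization.

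The other calponin genes were more abundant and were not called. CNN2, a calponin of many non-muscle cells, had 208.99 and 194.46 FPKM with FABP4 against 244.6 and 237.09 with DMSO (log2 fold change -0.26, adjusted p = 0.586 in limma). CNN3, the acidic calponin, had 121.46 and 111.36 against 129.1 and 152.1 FPKM (log2 fold change -0.27, adjusted p = 0.551 in limma). CNN1 made up 2.35% and 2.22% of calponin FPKM with FABP4 and 3.51% and 2.98% with DMSO, so its share was lower in both FABP4 libraries.

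TAGLN and CALD1, which also bind the thin filament, stood next in order of p and did not pass. TAGLN, the gene of transgelin (SM22 alpha), had 58.72 and 55.63 FPKM with FABP4 and 77.21 and 77.38 with DMSO. Its groups did not overlap, with a log2 fold change of -0.43 (SE 0.12, adjusted p = 0.134 in limma). TAGLN2, its relative in non-muscle cells, had 697.22 and 594.14 against 760.18 and 727.01 FPKM (log2 fold change -0.21, adjusted p = 0.804 in limma). TAGLN made up 7.77% and 8.56% of the FPKM of this pair with FABP4 and 9.22% and 9.62% with DMSO.

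CALD1, the gene of caldesmon, which blocks myosin access to actin, had 79.05 and 86.01 FPKM with FABP4 and 103.5 and 134.05 with DMSO. The DMSO libraries stood far from each other and both stood above the FABP4 ones (log2 fold change -0.51, SE 0.14, adjusted p = 0.126 in limma). Without DMSO replicate 2 its log2 fold change was -0.32, and over 13 alternatives it ran from -0.69 to -0.32. Of the alternatives that kept all libraries, CALD1 passed with a filter of 5 FPKM, equal totals and robust variance moderation, and not with the others. The smallest adjusted p among them was 0.00163 in limma. In the authors' deposited table, made with DESeq2, CALD1 has a log2 fold change of -0.48 and q = 0.00650.

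The tropomyosins, coiled-coil proteins that lie along the filament, were not called. TPM1 had 578.89 and 556.61 FPKM with FABP4 against 640.89 and 719.51 with DMSO (log2 fold change -0.26, adjusted p = 0.679 in limma). TPM4 had 468.8 and 449.44 against 544.7 and 568.09 FPKM (log2 fold change -0.28, adjusted p = 0.604 in limma), and TPM3 differed by a log2 fold change of -0.16. In all 3 the groups did not overlap. The share of TPM1 in tropomyosin FPKM did overlap, at 41.6% and 40.4% with FABP4 against 41.5% and 43.9% with DMSO.

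TPM2, the beta tropomyosin of muscle, was the one smooth-muscle type gene with a log2 fold change above 0, at 0.13 (SE 0.14, adjusted p = 0.893 in limma). It had 194.48 and 233.11 FPKM with FABP4 against 203.56 and 184.54 with DMSO, so the groups overlapped. Its share of tropomyosin FPKM was 14.0% and 16.9% with FABP4 and 13.2% and 11.3% with DMSO, higher in both FABP4 libraries (exact permutation test, two-sided p = 0.333, the smallest possible). LMOD1, a leiomodin that seeds filaments in smooth muscle, had 0.94 and 0.8 against 0.99 and 1.32 FPKM and was not tested.

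**Figure D2:**
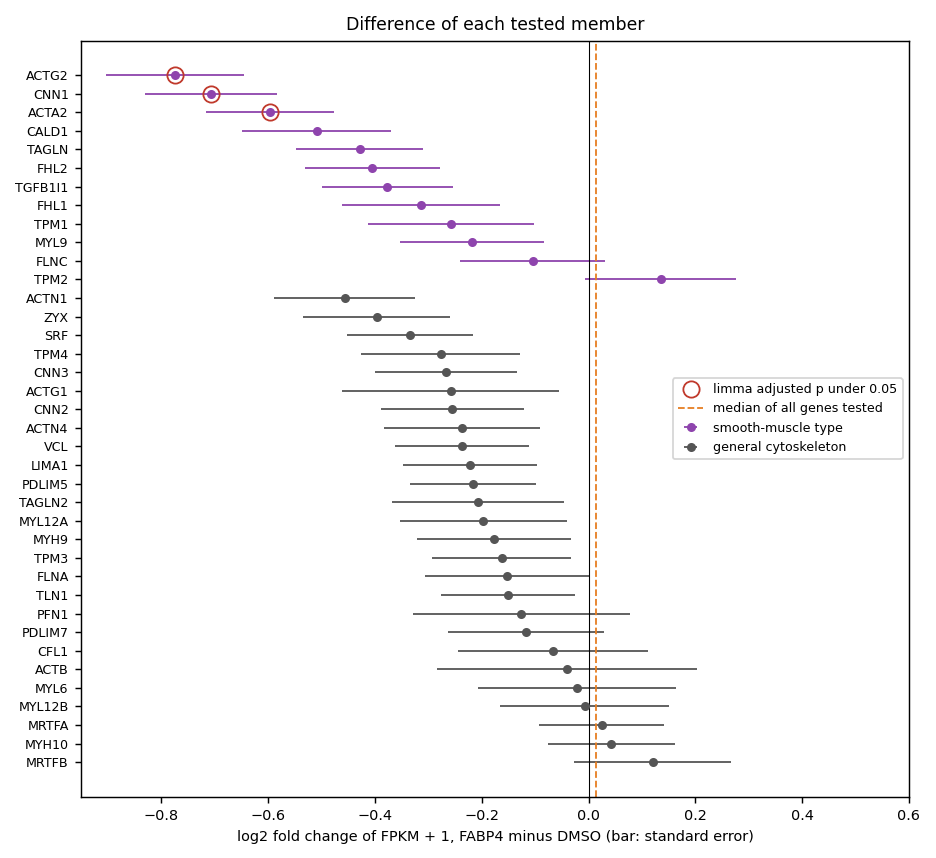
Log2 fold change of FPKM + 1 (FABP4 minus DMSO) of the 38 tested members with its standard error, smooth-muscle type genes above and general genes below, and the median of all genes tested as a dashed line. The circled genes ACTG2, CNN1 and ACTA2 lie at -0.77, -0.71 and -0.60, and 34 of the 38 points lie below 0.

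None of the myosin genes was called. MYL9, the regulatory light chain typical of smooth muscle, had 221.97 and 203.57 FPKM with FABP4 against 249.1 and 246.02 with DMSO, without overlap (log2 fold change -0.22, adjusted p = 0.691 in limma). Its non-muscle relatives MYL12A and MYL12B had log2 fold changes of -0.20 and -0.0073 (adjusted p = 0.815 and 0.998 in limma). MYL9 made up 16.8% and 18.5% of their summed FPKM, its own included, with FABP4 and 19.1% and 18.6% with DMSO, where the nearest libraries almost met. MYL6, the essential light chain, had 1449.07 and 1129.79 against 1226.43 and 1375.8 FPKM, with the DMSO libraries between the FABP4 ones. The heavy chain genes of non-muscle myosin, MYH9 and MYH10, had log2 fold changes of -0.18 and 0.04 (adjusted p = 0.822 and 0.979 in limma). In GENCODE 29, MYL12A and MYL12B share 10.0% and 11.7% of 50-base windows with other genes, each other among them, so their separate levels are uncertain. TPM4 (16.7%), ACTN1 (10.0%), PFN1 (8.3%), TAGLN2 (6.7%), ACTB and ACTG1 (3.3% each) also share some, and ACTA2, ACTG2 and CNN1 share none. None of these 6 myosin genes had an unadjusted p under 0.05 in limma, and the directions of MYL6 and MYH10 changed with the scaling.

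Of the cross-linking genes, ACTN1 stood furthest from 0. ACTN1 (gene ID 87, chromosome 14, 68874143 to 68979440, GRCh38, minus strand), an alpha-actinin that bundles stress fibres, had 168.46 and 177.52 FPKM with FABP4 and 233.91 and 241.54 with DMSO. Each group was tight and the groups lay far apart, at 173 ± 6.41 against 238 ± 5.40 FPKM (SD, n = 2 each; log2 fold change -0.46, SE 0.13). In limma it had an unadjusted p of 0.00303 and an adjusted p of 0.151. Of 13 alternatives, only FPKM rescaled to equal totals called ACTN1 (adjusted p = 0.00658 in limma). The authors' deposited table gives ACTN1 a log2 fold change of -0.45 and q = 1.33e-04, the smallest q of all members there.

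ACTN4, the other non-muscle alpha-actinin, had 325.6 and 360.18 against 422.98 and 385.28 FPKM (log2 fold change -0.24, adjusted p = 0.691 in limma). ACTN1 made up 34.1% and 33.0% of the FPKM of the pair with FABP4 and 35.6% and 38.5% with DMSO. The filamin genes FLNA and FLNC, whose proteins join filaments at wide angles, overlapped between groups (log2 fold changes -0.15 and -0.10, adjusted p = 0.882 and 0.929 in limma). FLNA had 353.27 and 433.91 FPKM with FABP4 against 448.11 and 422.73 with DMSO, so its FABP4 replicates differed more than its groups. FLNC, the muscle filamin, was 25.3% and 25.4% of filamin A and C FPKM with FABP4 and 24.2% and 25.3% with DMSO.

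**Figure D3:**
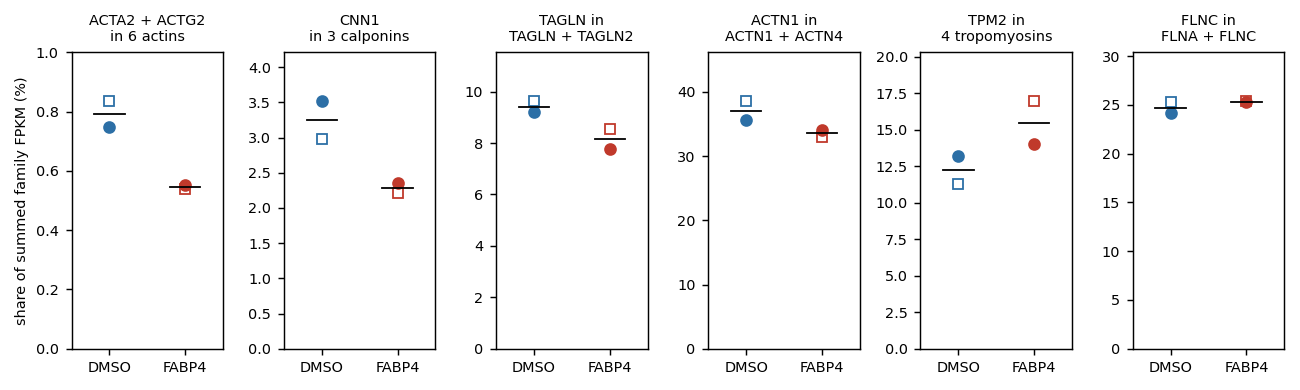
Share of the smooth-muscle type or first-named gene in the summed FPKM of its family in each library (percent, axes from 0), with replicate 1 filled, replicate 2 open and the group mean as a line. The actin, calponin, transgelin and alpha-actinin shares are lower in both FABP4 libraries, the TPM2 share is higher in both, and the FLNC share overlaps. The TPM1 and MYL9 shares are not drawn.

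Adhesion and LIM-domain genes all lay below 0, and none passed. ZYX, the gene of zyxin, which gathers at strained stress fibres, had 221.5 and 235.4 FPKM with FABP4 and 311.08 and 291.25 with DMSO (log2 fold change -0.40, adjusted p = 0.266 in limma). FHL2, a LIM protein that binds SRF, had 84.61 and 79.54 against 102.01 and 116.36 FPKM (log2 fold change -0.41, adjusted p = 0.207 in limma). TGFB1I1, the gene of the paxillin relative Hic-5, had 46.42 and 53.18 against 66.53 and 63.14 FPKM (log2 fold change -0.38, adjusted p = 0.228 in limma). In all 3 the groups did not overlap.

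FHL1, another LIM protein, had 264.12 and 260.3 FPKM with FABP4 against 290.96 and 365.4 with DMSO, with 1 DMSO library far above the rest (log2 fold change -0.31, adjusted p = 0.516 in limma). The genes of vinculin (VCL), talin (TLN1), the actin-bundling LIMA1 and the PDZ-LIM protein PDLIM5 had log2 fold changes of -0.24, -0.15, -0.22 and -0.22, each without overlap. VCL, for one, had 90.6 and 98.84 FPKM with FABP4 against 108.09 and 115.37 with DMSO, and TLN1 had 73.45 and 84.69 against 89.4 and 85.99, where the nearest libraries almost met. PDLIM7 overlapped, at 299.99 and 344.16 against 368.71 and 329.71 FPKM (log2 fold change -0.12). Of the 9 genes in this class, 8 had both FABP4 libraries below both DMSO libraries, as did 16.1% of all genes tested.

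The monomer-binding genes overlapped between groups. CFL1, whose protein cofilin severs filaments, had 1413.85 and 1269.44 FPKM with FABP4 against 1475.03 and 1334.45 with DMSO (log2 fold change -0.07, adjusted p = 0.979 in limma). PFN1, whose protein profilin feeds monomers to growing ends, had 2393.55 and 2086.15 against 2715.27 and 2188.91 FPKM (log2 fold change -0.13, adjusted p = 0.946 in limma). For both genes replicate 2 was the lower library in each condition.

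None of the regulators was called. SRF (gene ID 6722, chromosome 6, 43171299 to 43181507, GRCh38, plus strand) had 23.73 and 24.76 FPKM with FABP4 and 32.47 and 29.27 with DMSO, without overlap. Its log2 fold change was -0.33 (SE 0.12), with an unadjusted p of 0.0111 and an adjusted p of 0.277 in limma. The authors' deposited table gives SRF a log2 fold change of -0.37 and q = 0.0766. Its coactivator genes overlapped between groups, MRTFA at 20.62 and 21.44 against 21.7 and 19.66 FPKM and MRTFB at 3.69 and 4.63 against 3.18 and 4.35 (log2 fold changes 0.02 and 0.12, adjusted p = 0.988 and 0.923 in limma).

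Set side by side, 26 of the 38 tested members had both FABP4 libraries below both DMSO libraries and none had both above, where 16.1% and 20.7% of all genes tested did. By list, 10 of 12 smooth-muscle type and 16 of 26 general genes were apart in this way. Of the 38, 34 had a log2 fold change below 0, against 46% of all genes tested. The exceptions were TPM2, MRTFA, MRTFB and MYH10, and the sign of MRTFA and MYH10 turned when FPKM were rescaled to equal totals. These members share 4 libraries and are not independent of each other. They were also chosen with earlier results of these data known. For comparison, the 1821 other genes of at least 50 FPKM on average had a median log2 fold change of -0.0133, with 55.2% below 0. The called ACTG2 and CNN1 lie under that level, and the part of abundance in the members' values was not tested.

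**Figure D4:**
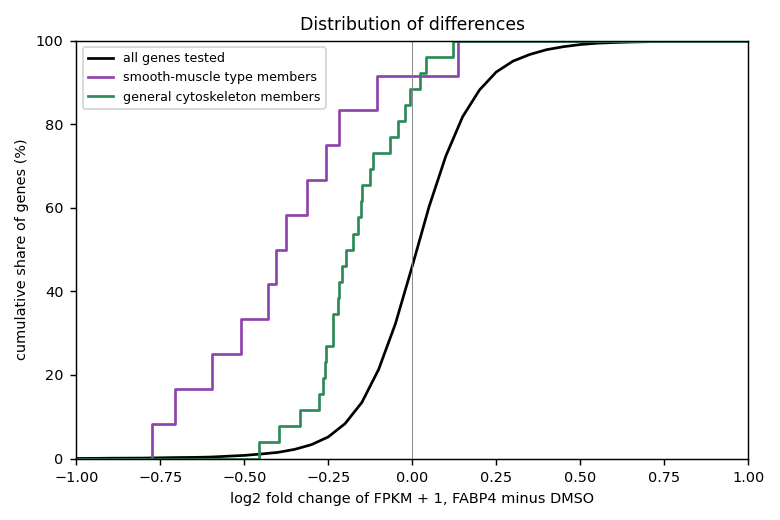
Cumulative share of genes (percent) against the log2 fold change of FPKM + 1, FABP4 minus DMSO, for all 12490 genes tested, the 12 smooth-muscle type and the 26 general members. Both member curves lie left of the curve of all genes, with medians of -0.39 and -0.19 against 0.01.

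The authors' deposited table, which tests the same libraries with DESeq2, calls 5 of the 40 members at q under 0.05, all lower with FABP4, where it calls 0.488% of 18019 genes as lower, 0.166% as higher and 0.655% in both directions. They are ACTN1, CALD1, ACTA2 (q = 0.0290), ACTG2 (q = 0.0316) and CNN1 (q = 0.0425), and FHL2 lies just outside with q = 0.0516. Among these 5, ACTA2, ACTG2, CNN1 and CALD1 are smooth-muscle type genes and ACTN1 is a general one. ACTA2 is at a log2 fold change of -0.48, ACTG2 at -0.76 and CNN1 at -0.74 in the authors' deposited table. With FPKM rescaled to equal totals, limma called 8 members, namely those 5 with TAGLN, FHL2 and ZYX. That scaling called 178 of all genes, 115 of them lower, where the unscaled FPKM gave 37 lower of 74.

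The replicates of FABP4 differed from each other with transcript length. Across the 38 tested members, the log2 difference between FABP4 replicates 2 and 1 was larger with the logarithm of the longest transcript (Pearson r = 0.761, across genes that share 2 libraries). Its median was -0.19 for the 10 members under 2000 bases and 0.21 for the 8 over 6000 bases. MYL6 and MYL12B stood lowest and FLNC and FLNA highest, while the short TPM2 and PDLIM7 transcripts ran against the trend with values of 0.26 and 0.20. The called ACTA2, CNN1 and ACTG2 have longest transcripts of 1349, 1848 and 2064 bases. Their differences were -0.16, -0.17 and -0.23 between the FABP4 replicates and -0.0019, -0.18 and -0.25 between the DMSO replicates. Between the DMSO libraries r was 0.284. Over 12378 genes tested r was 0.299 for FABP4 and 0.205 for DMSO. The log2 fold change between conditions followed length little, with r = 0.131 over the members and -0.0386 over all genes. The part of this pattern in single members' results was not tested.

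**Figure D5:**
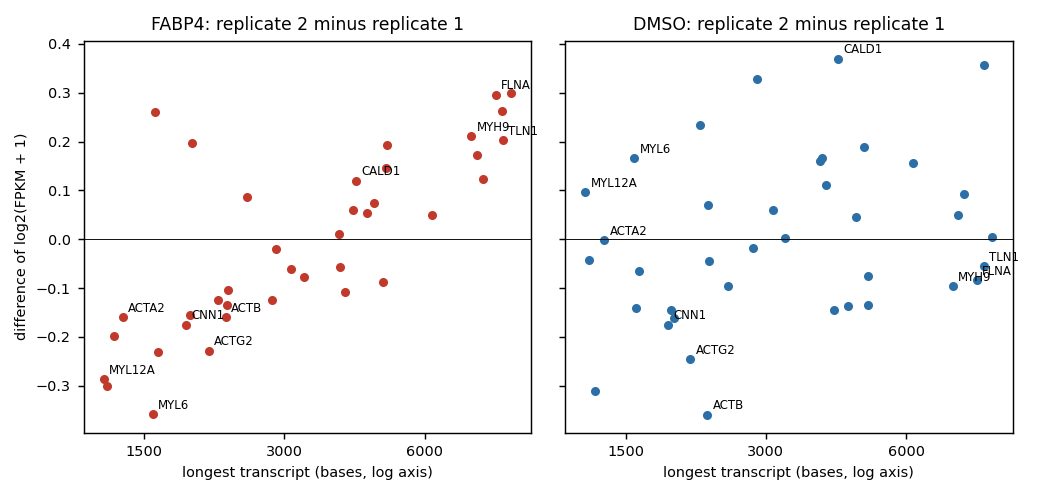
Difference of log2(FPKM + 1) between replicate 2 and replicate 1 (vertical) against the length of the longest transcript in bases (horizontal, log axis) for the 38 tested members, FABP4 on the left and DMSO on the right. The FABP4 points run from below 0 for short to above 0 for long transcripts (r = 0.761), the DMSO points less so (r = 0.284).

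Of 70 further actin genes chosen for their place in the pathway, 66 were tested and none passed in limma, while 8 had an unadjusted p under 0.05, all lower, where 9.68% of all genes tested had such a p and 4% had it as lower. Their median log2 fold change was -0.13, with 53 below 0 and 13 above, against 46% of all genes tested below 0. VASP, whose protein lengthens filaments at adhesions and leading edges, came closest, with 40.73 and 39.54 FPKM with FABP4 against 55.6 and 56.62 with DMSO (log2 fold change -0.47, SE 0.12, adjusted p = 0.0828 in limma, and 13 alternatives gave values from 0.00708 to 0.482). RND3 had 61.02 and 59.41 against 75.38 and 84.31 FPKM (log2 fold change -0.40, adjusted p = 0.190 in limma). FSCN1, the filament bundler fascin, had 115.68 and 116.74 against 158.15 and 142.04 FPKM (log2 fold change -0.36, adjusted p = 0.278 in limma). TLN2, the second talin gene, had 12.43 and 13.76 against 16.11 and 16.75 FPKM (log2 fold change -0.31, adjusted p = 0.331 in limma). The authors' deposited table calls 3 of these genes, VASP (q = 0.0391), TLN2 (q = 0.0296) and FSCN1 (q = 0.0201), all lower.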

How the data were processed

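Total RNA of C28/I2 cells was extracted with Trizol and made into libraries with an in-house kit from BGI, per the labels' protocols. The deposited table gives FPKM in each library, and from the authors' own comparison a log2 fold change, a p-value and a q-value, per the file headers. The submitters' processing notes name Bowtie2 2.2.5, RSEM 1.2.12, DESeq2 1.4.5 and GRCh38.p13 without roles. No source used here gives the annotation, the filters or the strand setting.

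Values were taken as log2(FPKM + 1), which understates the change of low genes. Genes reaching 1 FPKM in 2 or more libraries entered limma 3.58.1 in R 4.3.3 (condition alone, variance moderated along the mean, two-sided, Benjamini-Hochberg adjustment over all 12490 genes, threshold 0.05). The fit was checked on simulated data with noise drawn independently for each gene, which lacks the pattern with transcript length seen between replicates. The members and lists were chosen with earlier results of these data known. The naming rule takes every member and, of the other pathway genes, those past the threshold and the 4 with the smallest p. The family shares and the comparisons by CArG box, level and length were chosen after values were seen. Fragment numbers were inferred from the steps of low FPKM of genes with 1 GENCODE 29 transcript, and are approximate. Positions, lengths and shared 50-base windows are from GENCODE 29. Alternatives covered pseudocount, filter, scaling, variance moderation, replicate block and each library left out, with the filter applied anew.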

Additional observations from a re-analysis of the deposited data

How the results depend on the processing

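Limma called 3 members, against 3 or 4 with a pseudocount of 0.1, a filter of 5 FPKM, median-of-ratios scaling, no variance trend or robust moderation, 8 with equal totals, and 0 without the filter or after quantile normalization (2 to 3 with a library left out). Of all genes, 74 passed, against 0 without the filter, 151 with the filter of 5 FPKM, 178 with equal totals, 10 after quantile normalization, 164 with robust moderation and 59 to 153 with a library left out (153 without FABP4 replicate 1 and 152 without DMSO replicate 1). Smooth-muscle type calls were 3, against 0, 6 and 0 without the filter, with equal totals and after quantile normalization. General calls were 0, against 2 with equal totals (ACTN1 and ZYX). Other pathway calls were 0, against 1 with the filter of 5 FPKM or robust moderation (VASP) and 2 with equal totals (VASP and RND3). Of the calls over all genes, 37 of 74 were lower, against 115 of 178 with equal totals and 7 of 10 after quantile normalization. The causes were not tested.

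The median log2 fold change of the smooth-muscle type genes was -0.32 to -0.45 with a library left out and -0.51 on a narrower list without 7 of the genes. That of the general genes was -0.23 with equal totals and -0.17 to -0.20 with a library left out. The lower share of ACTA2 and ACTG2 among actins differed by -0.204 to -0.289 percentage points with a library left out. No scaling moved the median of all genes by over 0.1.

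Of 493 log2 fold changes of members under an alternative, 18 changed sign, in 9 genes that limma called under none of them. With a library left out the values ran from -0.25 to 0.044 for FLNC, -0.22 to 0.14 for ACTB, -0.20 to 0.16 for MYL6, -0.16 to 0.14 for MYL12B, -0.044 to 0.13 for MYH10, -0.14 to 0.011 for CFL1, -0.28 to 0.030 for PFN1, -0.043 to 0.092 for MRTFA and -0.058 to 0.30 for MRTFB. With equal totals MYH10 was -5.3e-04 and MRTFA -0.020, and after quantile normalization MYL6 was 0.012.

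With the replicate number as a block, 47 genes and 2 members passed (ACTG2 and CNN1, but not ACTA2, adjusted p = 0.109 in limma). The numbers are not stated to pair samples, and deviations of same-numbered libraries correlated at -0.119. A crossed pairing, chosen after seeing the data, called 418 genes and 9 members. The 2 libraries per group limit every test, and LMOD1 and ACTC1 were too low to test.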

Other observations

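The further pathway genes can be grouped by complex, a grouping and choice of named genes made after values were seen. Of the 8 genes of the Arp2/3 complex, which starts branched filaments, 7 had a log2 fold change below 0, with a median of -0.14 and ARPC3 as the exception. Of 11 adhesion adaptor genes, 9 lay below 0, with a median of -0.14, and 9 had both FABP4 libraries below both DMSO libraries. Over all genes tested, 46% lay below 0 and 16.1% had both FABP4 libraries below. ENAH, a relative of VASP, and TES lay above 0, ENAH with both FABP4 libraries above both DMSO libraries at a log2 fold change of 0.25 (adjusted p = 0.551 in limma). No gene of these groups passed in limma, and 1 Arp2/3 and 2 adhesion adaptor genes had an unadjusted p under 0.05, as had 9.68% of all genes tested.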
